A study of Homo sapiens with 15 samples.

Results

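RNA polymerase II (RNAPII) at promoters was set against the RNA found in the nucleus, gene by gene, in HEK293T T-REx cells, a human embryonic kidney line with a tetracycline repressor for inducible transgenes. The comparison used 4 of the 15 samples of the series: 1 RNAPII ChIP-seq library, 1 input DNA library, and 2 libraries of total nuclear RNA. Cells of all 4 carried no transgene, and the RNA libraries had no treatment. The RNAPII antibody (ab817) is directed against the C-terminal domain of the largest subunit. For ChIP, cells were fixed with 1% formaldehyde for 6 minutes, and for RNA, nuclei were isolated from cells the protocol calls crosslinked, and ribosomal RNA was removed. All 14432 genes with a row in both the table of reads at transcription start sites (TSS) and the table of nuclear RNA reads entered, 12947 of them protein coding and 907 lncRNA genes.

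RNAPII assembles at a promoter with general initiation factors, and at many human genes it halts shortly after the start until a kinase, P-TEFb, releases it into the gene body. The amount of RNA in a nucleus is known to depend on how often polymerase starts, how often it goes on, how long the gene is, and how fast the RNA is spliced, exported or degraded. Promoters of mammals often start in both directions, and the upstream transcript is usually short-lived. H3K4me3 is the histone mark of active promoters.

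The amount of RNA per unit of promoter RNAPII is called the yield below. It is the mean nuclear RNA of the 2 libraries in counts per 1M reads in genes (CPM) plus 0.1, divided by the RNAPII value at the TSS in reads per 10M reads above input. A yield was given only to genes with at least 5 RNAPII reads per 10M above input, which were 7079 of the 14432 genes (49.1%). Relative yield is log2 of a gene's yield over the median yield of these genes, 5.24 CPM per RNAPII read per 10M. With 1 RNAPII library there is no replicate of the denominator, so everything below is a description with no test. The interval beside an RNAPII value or a relative yield is a 95% interval for RNAPII and input counting error only. The 2 RNA libraries held 47187882 and 49626658 reads in genes, the RNAPII and input libraries 32.5M and 38.7M reads, and the sources do not say whether the RNA replicates were separate cultures.

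RefSeq promoter windows of genes at both ends of the scale are shown first. The comparison turns on what the same kind of promoter signal gives in RNA. The following 4 belong to genes with high yields. They are HSPA8 (the constitutive HSP70 chaperone), EEF1A1 (translation elongation factor), GAPDH (a glycolytic enzyme) and RPL11 (a protein of the large ribosomal subunit). Each window runs from 250 bases before to 50 bases after a RefSeq start, 5′ to 3′ on the gene's strand. That start is the outermost in the promoter set used, which lists 1 start for GAPDH and may not hold every start. Every TATAAA, every CCAAT or its reverse complement ATTGG, and every GAANNTTC, the core of the heat shock element, is in capitals.
HSPA8: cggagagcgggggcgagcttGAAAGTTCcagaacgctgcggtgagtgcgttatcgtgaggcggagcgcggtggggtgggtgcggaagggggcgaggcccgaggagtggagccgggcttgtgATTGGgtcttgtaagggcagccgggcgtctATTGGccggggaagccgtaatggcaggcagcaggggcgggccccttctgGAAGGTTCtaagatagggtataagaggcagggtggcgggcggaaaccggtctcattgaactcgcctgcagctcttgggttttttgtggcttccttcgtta
EEF1A1: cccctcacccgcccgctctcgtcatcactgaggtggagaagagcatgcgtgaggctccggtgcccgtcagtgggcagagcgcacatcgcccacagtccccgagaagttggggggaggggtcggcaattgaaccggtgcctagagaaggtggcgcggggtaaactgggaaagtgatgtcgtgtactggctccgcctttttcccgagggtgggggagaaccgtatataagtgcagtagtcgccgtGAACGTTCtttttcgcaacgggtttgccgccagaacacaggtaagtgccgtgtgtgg
GAPDH: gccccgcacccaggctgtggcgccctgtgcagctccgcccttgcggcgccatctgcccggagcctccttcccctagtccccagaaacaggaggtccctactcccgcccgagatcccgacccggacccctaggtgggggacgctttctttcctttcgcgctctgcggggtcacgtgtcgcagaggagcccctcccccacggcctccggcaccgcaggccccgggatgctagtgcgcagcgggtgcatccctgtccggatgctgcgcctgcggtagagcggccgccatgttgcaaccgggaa
RPL11: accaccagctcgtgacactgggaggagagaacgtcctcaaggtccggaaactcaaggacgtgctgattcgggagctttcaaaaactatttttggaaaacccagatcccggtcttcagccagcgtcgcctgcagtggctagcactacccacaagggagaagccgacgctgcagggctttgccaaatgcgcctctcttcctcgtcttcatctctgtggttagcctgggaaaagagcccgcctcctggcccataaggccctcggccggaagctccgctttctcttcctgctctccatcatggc
In GRCh38.p14 these lie at chr11:123062087-123062386 (minus strand), chr6:73520983-73521282 (minus strand), chr12:6535014-6535313 (plus strand) and chr1:23691529-23691828 (plus strand). Of 27305 RefSeq promoters of this length, 7.73% held TATAAA, 35.7% held CCAAT on either strand and 6.86% held GAANNTTC. HSPA8 held 4 matches, EEF1A1 1 match, and the GAPDH and RPL11 windows held 0 matches. Windows here and below were matched by gene number, not by the coordinates of the start counted for RNAPII. Whether each window holds that start was not tested, so a lack of matches need not apply to the promoter counted.

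Low yields are represented by a divergent pair and by a stress gene. BTG2, an antiproliferative gene of the immediate early response, and the lncRNA gene BTG2-DT start 194 bases apart on opposite strands of chromosome 1. DDIT4, a stress-induced inhibitor of the mTORC1 kinase, had an RNAPII value among the 8 highest of the table.
BTG2-DT: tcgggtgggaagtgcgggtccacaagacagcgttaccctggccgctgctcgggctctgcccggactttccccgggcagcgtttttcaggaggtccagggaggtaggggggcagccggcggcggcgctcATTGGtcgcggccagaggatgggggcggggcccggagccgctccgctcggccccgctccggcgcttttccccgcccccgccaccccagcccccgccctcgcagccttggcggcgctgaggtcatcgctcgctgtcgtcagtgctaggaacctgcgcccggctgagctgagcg
BTG2: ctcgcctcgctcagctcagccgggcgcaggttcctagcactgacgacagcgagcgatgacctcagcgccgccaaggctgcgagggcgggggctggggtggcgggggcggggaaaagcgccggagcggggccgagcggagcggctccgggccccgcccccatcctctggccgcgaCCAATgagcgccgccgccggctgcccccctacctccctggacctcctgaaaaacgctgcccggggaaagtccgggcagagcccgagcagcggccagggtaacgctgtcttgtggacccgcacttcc
DDIT4: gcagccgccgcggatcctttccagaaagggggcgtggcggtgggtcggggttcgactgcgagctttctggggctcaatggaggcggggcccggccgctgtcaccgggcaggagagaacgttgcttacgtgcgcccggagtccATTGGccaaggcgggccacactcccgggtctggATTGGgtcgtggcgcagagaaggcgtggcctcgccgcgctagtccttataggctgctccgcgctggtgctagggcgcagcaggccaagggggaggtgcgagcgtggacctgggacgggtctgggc
They lie at chr1:203305276-203305575 (minus strand), chr1:203305269-203305568 (plus strand) and chr10:72273674-72273973 (plus strand). The BTG2-DT and BTG2 windows share 293 bases read in opposite directions, so the CCAAT of one is the ATTGG of the other. The DDIT4 window held 2 matches, both ATTGG.

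Across all 14432 genes, median nuclear RNA was higher in each higher range of RNAPII. Genes with no RNAPII above input had a median of 0.276 CPM (2319 genes), and genes between 0 and 5 RNAPII reads per 10M had 0.817 CPM (5034 genes). The median was 45.6 CPM between 5 and 10 reads, 78.0 CPM between 10 and 20, 109 CPM between 20 and 40, and 133 CPM in the 87 genes with 40 or more. As a fold, the largest step between neighbouring ranges lay at the limit of 5 reads, while in CPM the medians also rose above it. The ranges were set here, and the one from 0 to 5 was not divided further. Spearman's rho of RNAPII and CPM was 0.706 over all 14432 genes and 0.295 over the 7079 genes with a yield, as a description across genes, which are not independent. Over these 7079 genes RNAPII was more closely ranked with H3K4me3 at the TSS, which shares the input library (rho 0.482), than with RNA.

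The quartiles of the relative yield were -1.22 and 1.04 on the log2 scale, and the 5th and 95th percentiles were -3.90 and 2.49. This spread is wide beside the errors that could be estimated, which leave out variation between RNAPII ChIP libraries. Its robust SD was 1.68, against 0.121 for the SD of the log2 ratio between RNA replicates, and 0.273 expected from RNAPII counting. A relative yield 4-fold or more above the median was found for 650 of 7079 genes (9.18%), called high here, and one 4-fold or more below it for 1067 (15.1%), called low. RNAPII and RNA are what the classes are made from, so their levels are given as a description. RNAPII had medians of 10.6 reads per 10M in high genes, 12.5 in low genes and 13.9 in the 5362 genes between, and nuclear RNA had medians of 346, 6.38 and 80.1 CPM in that order. RNAPII was under 10 reads per 10M in 46.8% of high genes and 36.9% of low genes, against 30.3% of all genes with a yield. The limits cut through a continuous range. BPNT2 and LAS1L stood just inside the high class and DSP and STRBP just outside it, all at 2.00, while MOCOS and FOXJ2 stood just inside the low class and FHL3 and TSC22D4 just outside it, equal to the limit when rounded.

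**Figure D1:**
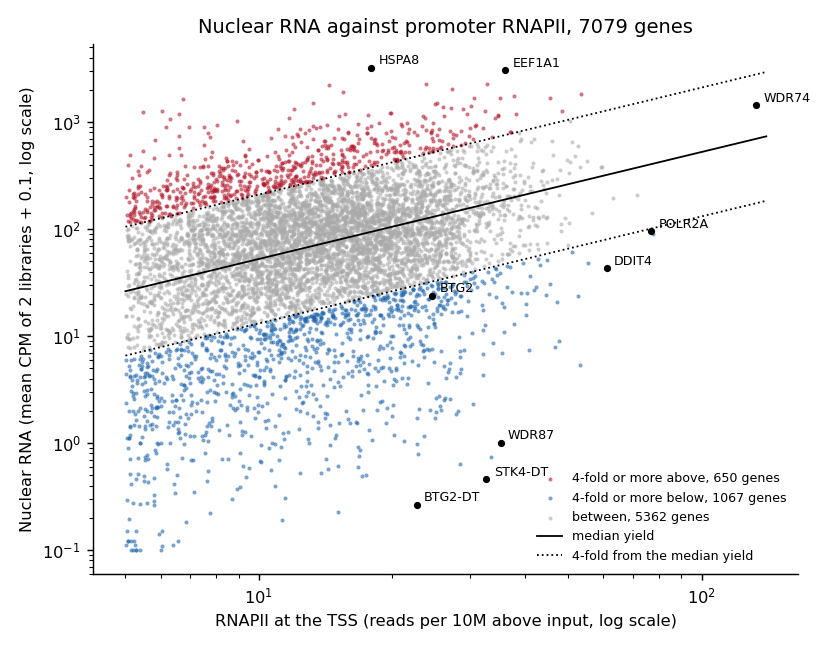
Nuclear RNA (mean CPM of 2 libraries plus 0.1) against RNAPII at the TSS (reads per 10M above input), both on log scales, for the 7079 genes with a yield. Red points are the 650 high genes, blue points the 1067 low genes, the line is the median yield and dotted lines lie 4-fold from it. RNA spans several orders of magnitude at RNAPII levels under 40 reads per 10M, and 0 of the 87 genes with more RNAPII were under 1 CPM. The low side reaches further from the median than the high side.

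Gene length moved with the yield. In the shortest decile of gene regions, with a median of 3.05 kb, the median relative yield was -1.63, and in the longest, with a median of 210 kb, it was 1.30. Each of the 10 decile medians was above the one before, while the RNAPII median stayed between 11.3 and 14.3 reads per 10M. The shortest decile held 26 high and 301 low genes, and the longest held 196 high and 28 low genes. When RNA was counted per kb of region, the order turned round, with medians of 1.82 in the shortest and -1.48 in the longest decile. Regions span introns, and total nuclear RNA holds unspliced transcripts, so neither scale removes length. A length-matched yield was therefore also taken, the relative yield less the median of the gene's own length decile. By it 556 genes (7.85%) were high and 892 (12.6%) low. Of the high genes 53.8% were also high after matching, and 70.8% of the low genes were also low.

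**Figure D2:**
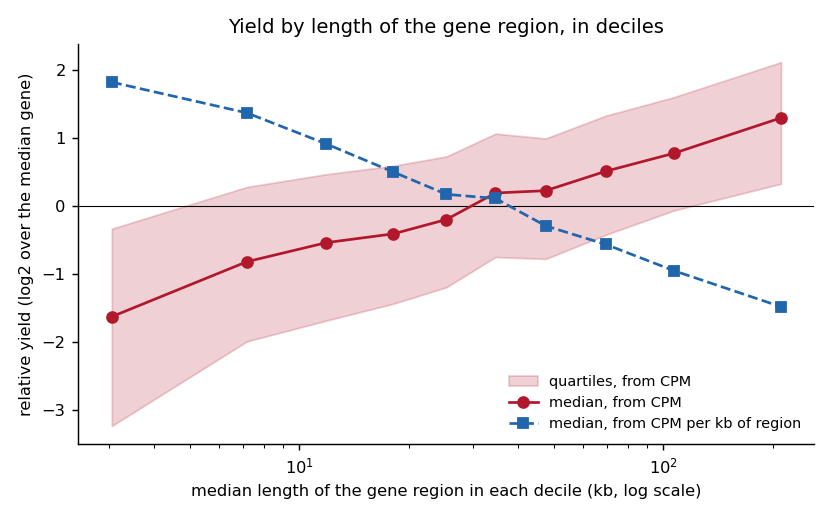
Relative yield (log2 over the median gene) by decile of gene region length (kb, log scale). Red points are decile medians from CPM with quartiles shaded, and blue squares are medians from CPM per kb of region. The red line climbs to 1.30 at 210 kb, and the blue line descends to -1.48 there.

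The 12 highest yields were those of HSP90AB1, DST, HSPA8, PCDH7, MECOM, AUTS2, CANX, HNRNPH1, FHIT, ANKRD28, SET and NKAIN2, whose regions differ widely in length. HSP90AB1, the constitutive HSP90 chaperone, had 1536 and 1721 CPM in RNA replicates 1 and 2 over an RNAPII value of 6.75 (2.29 to 11.6), a relative yield of 5.52 (4.75 to 7.08). HSPA8 had 3257 and 3119 CPM over 17.9 RNAPII reads per 10M (12.8 to 23.6), a relative yield of 5.08 (4.69 to 5.57). CANX, a chaperone of the endoplasmic reticulum, had 2244 and 2162 CPM and a relative yield of 4.86. RefSeq lists 5 start sites for SET, 4 each for CANX, HNRNPH1 and ANKRD28, 3 each for HSP90AB1, DST and MECOM, and 2 for FHIT. Which of them the counted window covers was not tested. DST (a cytoskeletal linker, 497 kb), PCDH7 (a protocadherin, 426 kb), MECOM (a transcription factor, 580 kb) and AUTS2 (1194 kb) had relative yields between 5.02 and 5.44. FHIT (1502 kb) stood at 4.61 and NKAIN2 (1022 kb) at 4.48. Per kb of region, AUTS2, FHIT and NKAIN2 fell below the median gene, at -0.15, -0.89 and -0.46. HNRNPH1, a splicing regulator, stood at 4.79 and at 5.33 after length matching, and ANKRD28 and SET stood at 4.56 and 4.52. RNAPII was close to the limit of 5 reads per 10M in DST at 5.47 (1.24 to 10.0), NKAIN2 at 5.84 and PCDH7 at 6.06. The same held for HNRNPH1 at 6.18, AUTS2 at 6.31, MECOM at 6.61 and FHIT at 6.95 (2.21 to 12.0). It was 7.52 in SET, 14.4 in CANX and 15.5 in ANKRD28. A low denominator raises the yield, so the order among these genes is uncertain.

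After length matching, a list added once the yields had been seen, the 12 highest were HSP90AB1, HSPA8, HNRNPH1 and SET, of those above, and RPL11, IRS4, RPS4X, ACTG1, EEF1A1, GAPDH, CFL1 and RPL27. RPL11 had 937.6 and 873.5 CPM over 13.8 RNAPII reads per 10M (8.57 to 19.4), with a relative yield of 3.65 and 5.28 after matching. EEF1A1 had 3132 and 2942 CPM over 36.1 reads (29.2 to 43.6), with 4.01 and 4.83. GAPDH had 1738 and 1631 CPM over 35.1 reads (28.1 to 42.8), with 3.19 and 4.82. IRS4, an insulin receptor substrate gene of 3.88 kb, had 1244 and 1163 CPM over 19.9 reads, with 3.53 and 5.16. RPS4X, ACTG1, CFL1 and RPL27 had length-matched yields between 4.80 and 5.15. Several of these genes have near-identical processed copies in the genome, and how the authors counted reads that match more than 1 place is not given in the sources used here, so their RNA values are uncertain to that extent.

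Ribosomal protein genes combined much RNAPII with still more RNA. Among 45 members, 43 had a yield, 17 were high and 1 low, where 9.18% and 15.1% of all genes with a yield were, and their median relative yield was 1.92 (2.90 after length matching). Their median RNAPII was 21.3 reads per 10M and their median RNA 339 CPM, with RNAPII from 8.42 to 55.0 and RNA from 19.5 to 1511 CPM. The only low member was RPL39L, a paralogue of RPL39 known from testis, with 19.2 and 19.7 CPM at a relative yield of -2.16. The next lowest, RPL26L1, also a paralogue, stood at -1.45. Genes of the mitochondrial ribosome had 1 high and 0 low members of 51, a median relative yield of -0.17 (0.60 after length matching) and a median RNA of 69.0 CPM. MRPL42 was the high one at 2.47. List counts here and below are over members with a yield, to be read beside the 9.18% high and 15.1% low of all such genes. The highest and lowest members named are among those with more than 3 reads in each RNA library. Respiratory chain genes lay between, with 4 high and 0 low of 47 and a median of 0.54, led by ATP5F1A at 2.75 and UQCRC2 at 2.74.

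Glycolytic enzymes had 7 high and 0 low members of 10 with a yield, and a median relative yield of 2.82. The shares over all genes with a yield were 9.18% high and 15.1% low. GPI, the isomerase of the upper pathway, had 951.9 and 957.4 CPM over 16.8 RNAPII reads per 10M and stood at 3.44, and PFKP stood at 3.29. LDHB and LDHA, which interconvert pyruvate and lactate, stood at 3.15 and 2.43, PGK1 at 2.95 and PKM at 2.70. The lowest were ENO2, the enolase of neurons, at -0.47 and PFKL at 0.45. HK1 and HK2, the hexokinases that open the pathway, had no yield, with RNAPII of -0.26 and 2.64 reads per 10M and RNA of 187 and 189 CPM (HK1) and 101 and 111 CPM (HK2). Housekeeping genes used as references in expression work had 7 high and 0 low of 12 and a median of 2.96, and ACTB, TUBA1B and YWHAZ stood between 2.80 and 3.26. TBP, a general initiation factor, was the lowest of them at -0.13.

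Protein folding, translation and protein breakdown also stood above the median gene. Counts of high and low members stand beside 9.18% and 15.1% of all genes with a yield. Heat shock genes had 6 high and 0 low of 14 and a median of 1.72. HSP90AA1, the inducible HSP90, had 1344 and 1616 CPM and stood at 3.50 and FKBP4 at 2.44, while the co-chaperones BAG3 and DNAJB4 stood at -1.22 and -0.63. Cytosolic tRNA synthetases had 5 high and 0 low of 12 and a median of 1.69, led by FARSB at 2.93 and RARS1 at 2.58. Proteasome genes had 5 high and 0 low of 22 and a median of 1.50, led by PSMB4 at 2.72 and PSMD11 at 2.43. Genes of replication licensing and the fork had 7 high and 0 low of 19 and a median of 1.71, led by the clamp loader subunit RFC3 at 3.72 and the helicase subunit MCM3 at 3.54. Spliceosome and hnRNP genes had 8 high and 1 low of 31 with a median of 1.31. SR and SR-like splicing genes, which include the kinase gene CLK1, had 2 high and 0 low of 12 with a median of 1.12. The 1 low spliceosome or hnRNP gene had 0 CPM, and why its row holds no reads was not tested. The lowest of that list with more than 3 reads in each RNA library was SF3B4 at -1.39.

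**Figure D3:**
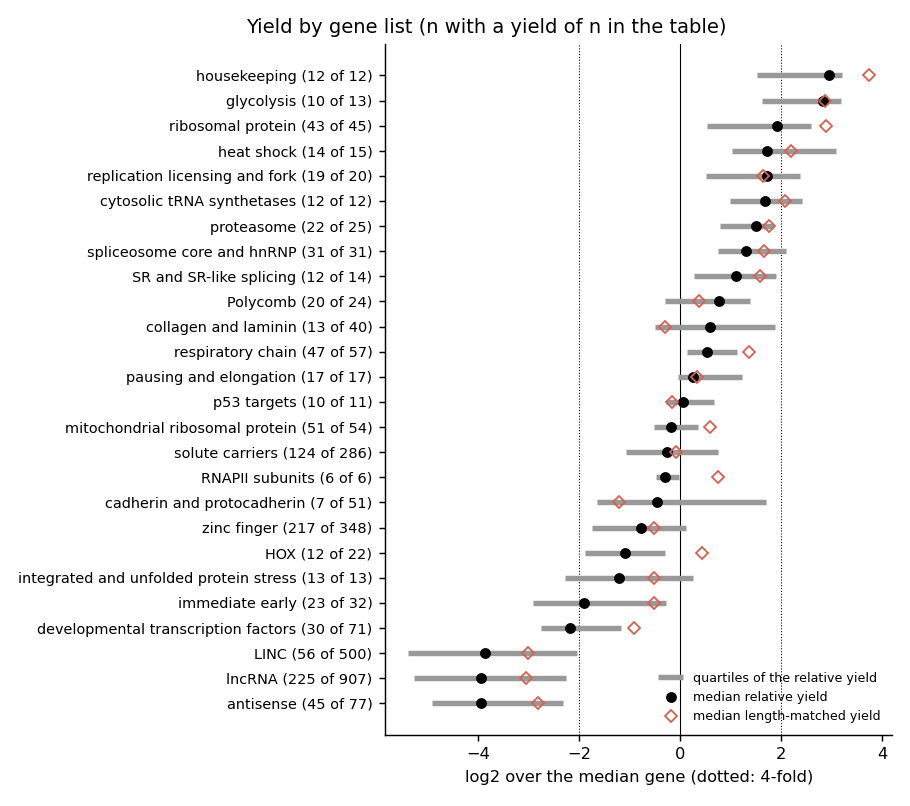
Median relative yield of each gene list (black points, log2 over the median gene) with quartiles over genes (grey bars), and the median length-matched yield (open diamonds). Labels give the genes with a yield of those in the table, and dotted lines lie 4-fold from the median. Housekeeping and glycolytic genes stand highest, at 2.96 and 2.82, and lncRNA and antisense genes lowest, at -3.94.

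Low yields were common among lncRNA genes, against 15.1% low and 9.18% high of all genes with a yield. Of 225 lncRNA genes with a yield, out of 907, 175 were low and 4 high (153 and 5 after length matching), and the median relative yield was -3.94 (-3.04 after length matching and -1.81 per kb). They made up 0.615% of the high class, 16.4% of the low class and 0.858% of the genes between. Over members with a yield, which all passed the limit of 5 RNAPII reads, median RNAPII was 14.2 reads per 10M in lncRNA genes, against 13.4 in protein coding genes, and median RNA was 5.83 CPM, against 77.5 CPM. Over all members, with or without a yield, median RNAPII was 1.39 reads per 10M in lncRNA genes, against 5.64 in protein coding genes, and median RNA was 0.286 CPM, against 24.5 CPM. Genes named as long intergenic RNAs had 0 high and 42 low of 56 with a yield, out of 500 (0 and 37 after length matching). Genes named as antisense had 0 high and 37 low of 45 with a yield, out of 77 (0 and 30 after length matching). Median relative yields of the 2 lists were -3.85 and -3.94, and per kb -1.73 and -1.52. LINC02453, at -7.21, and LINC01816, at -6.93, were the lowest of the intergenic ones with more than 3 reads in each RNA library. The 4 high lncRNA genes included MALAT1, the abundant RNA of nuclear speckles, with 732.6 and 1011 CPM over 13.5 RNAPII reads per 10M (9.56 to 18.1) and a relative yield of 3.62. FIRRE, an X-linked nuclear RNA, stood at 3.01. NEAT1, the scaffold of paraspeckles, had 27.2 RNAPII reads per 10M with 98.8 and 102 CPM, and stood at -0.51. The RNA kit keeps the strand, but the setting used when reads were counted is not given in the sources used here, so reads of a gene and of an overlapping partner on the other strand may not have been separated.

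Divergent transcripts had the 3 lowest yields among genes with more than 3 reads in each RNA library. BTG2-DT had 9 and 7 reads in the RNA libraries, 0.191 and 0.141 CPM, over 22.8 RNAPII reads per 10M (16.3 to 29.7), a relative yield of -8.81. STK4-DT had 11 and 24 reads over 32.7 RNAPII reads per 10M (25.9 to 40.1), at -8.55, and ATP13A3-DT 0.170 and 0.0806 CPM over 15.1 reads, at -8.46. Of 86 genes named as divergent transcripts 64 had a yield, 55 of them low and 0 high, against 15.1% and 9.18% of all genes. The median relative yield of these 64 was -4.32, and -3.97 after length matching. Their median H3K4me3 was 56.2 reads per 10M above input. Of the 12 lowest yields 5 were divergent transcripts, the other two being H2AZ1-DT and ACTN1-DT, both at -7.51, and 4 were protein coding genes. Among these were SYCE3, of the synaptonemal complex of meiosis, at -8.26, and WDR87, with 43 and 45 reads over 35.2 RNAPII reads per 10M (27.6 to 43.3) and 141 H3K4me3 reads per 10M, at -7.51. After length matching, ATP13A3-DT at -8.65 and BTG2-DT at -7.99 remained the lowest by the same condition, followed by the protein coding genes SEL1L2 at -7.80 and SYCE3 at -7.72, while STK4-DT stood at -6.92, behind further protein coding genes. The start of WDR87 lies 614 bases from that of SIPA1L3, which had 168 CPM.

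Pairs of genes that start head to head had near-equal RNAPII values and often differed in RNA, and were looked at once the lowest yields had been seen. In 377 pairs both genes had a yield and started within 1 kb of each other on opposite strands. Their RNAPII values differed by a median of 0.06 on the log2 scale (rho 0.905 over the pairs), and 0 pairs differed 4-fold. Their RNA differed by a median of 1.90 (rho -0.03), and 181 pairs (48.0%) differed 4-fold or more. In 1856 pairs of other neighbouring regions, RNAPII differed by a median of 0.61 (rho 0.188) and RNA by 1.60 (rho 0.055), and 744 pairs (40.1%) differed 4-fold or more in RNA. ChIP reads carry no strand, and the window counted around a TSS is not given in the sources used here, so the same reads may have been counted for both genes. BTG2-DT and BTG2 shared 293 bases of the promoter windows shown above. They had RNAPII values of 22.8 and 24.6 reads per 10M, and mean RNA of 0.166 and 23.7 CPM.

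Where a lncRNA gene and a protein coding gene made up such a pair, the lncRNA had the lower RNA in 74 of 81 pairs. Median RNAPII was 17.1 reads per 10M at the lncRNA starts and 17.2 at the coding starts, and median RNA was 4.65 and 80.9 CPM in that order. Per kb of region the lncRNA was still the lower in 63 of 81, with medians of 0.504 and 2.58 CPM per kb. Leaving out each gene with another region within 1 kb left 486 genes high and 787 low, and the median relative yield was -3.52 for lncRNA genes and -2.40 for antisense genes. How much of the RNAPII value belongs to each gene of a pair cannot be told apart in these data.

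**Figure D4:**
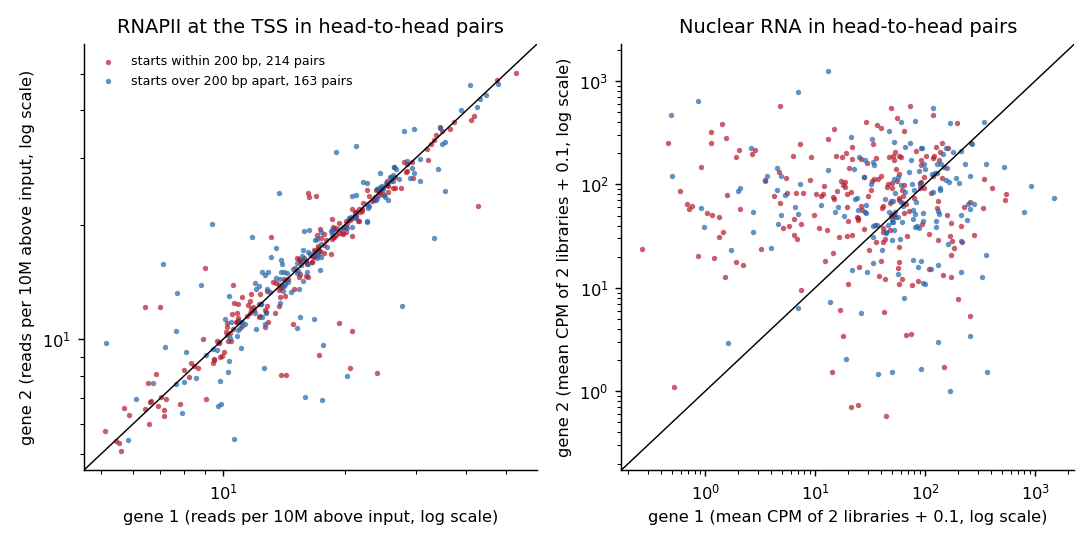
RNAPII at the TSS (left, reads per 10M above input) and nuclear RNA (right, mean CPM plus 0.1) of both genes of 377 head-to-head pairs, on log scales, with gene 1 the first listed in the table. Red pairs start within 200 bp (214 pairs), blue pairs over 200 bp apart (163 pairs), and the line marks equal values. RNAPII values lie along the line and RNA values do not.

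Immediate early genes, which signals switch on within minutes and whose mRNAs are short-lived, had a median yield below that of all genes, which was above it per kb of region. Among 32 members, 23 had a yield, and 0 were high and 11 low, against 9.18% and 15.1% of all genes with a yield. After length matching 2 were high and 6 low, against 7.85% and 12.6%. The median relative yield was -1.89, which was -0.52 after length matching and 1.03 per kb of region. The lowest were KLF2 at -4.91, with 1.36 and 1.61 CPM over 9.07 RNAPII reads per 10M, and ZFP36, which codes for an mRNA decay factor, at -4.74, with 2.71 and 4.03 CPM over 17.6 reads (11.5 to 24.2). NR4A2 and NR4A3, orphan nuclear receptors, stood at -4.13 and -3.77, CCN1 at -3.96 and KLF6 at -2.94 with 45.4 RNAPII reads per 10M. BTG2, whose promoter is given above, stood at -2.44, DUSP1 at -2.15 and EGR1 at -2.65, and per kb these stood at 0.59, 1.27 and 0.47. JUN had 205.8 and 198.8 CPM over 36.8 reads and stood at 0.07, and MYC (1.82) and MCL1 (1.19) were the highest. FOS had no yield, with 3.04 RNAPII reads per 10M.

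Genes of the integrated stress response and the unfolded protein response had 0 high and 4 low of 13 (0 and 1 after length matching). Their median was -1.20 (-0.51 after length matching, 1.08 per kb). All genes with a yield were 9.18% high and 15.1% low (7.85% and 12.6% after length matching), for this list and the next. CHAC1, which degrades glutathione, had 1.80 and 1.57 CPM over 20.0 RNAPII reads per 10M (14.8 to 25.8) and stood at -5.87. DDIT4 had 43.2 and 42.7 CPM over 61.0 reads (52.3 to 70.5) and stood at -2.89, CEBPB at -2.80 and DNAJB9 at -2.28, and per kb these stood at 1.08, 1.18 and 0.42. ATF4, the transcription factor at the centre of the response, had 304.9 and 284.8 CPM over 47.2 reads and stood at 0.25, and the biosynthetic genes PHGDH, PSAT1 and ASNS stood at 1.10, 0.96 and 0.65. Targets of p53 had 1 high and 1 low of 10 and a median of 0.06, from MDM2, the ligase that removes p53, at 2.22 to GADD45A at -2.72 (0.67 per kb).

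**Figure D5:**
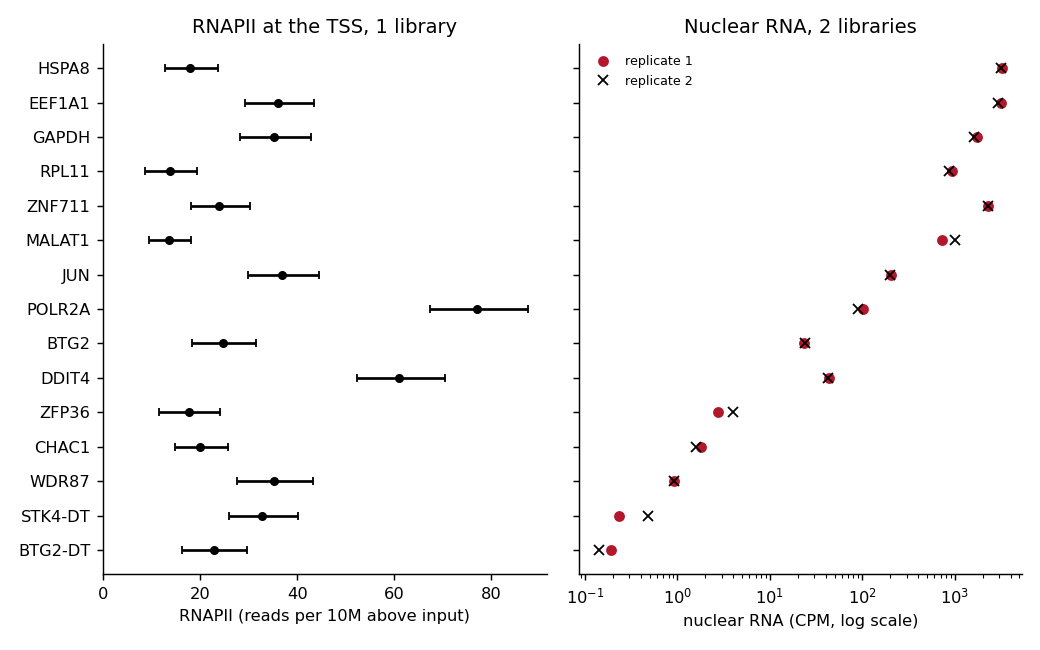
RNAPII at the TSS (left, reads per 10M above input, bars are 95% counting intervals) and nuclear RNA in each replicate (right, CPM, log scale) of 15 genes named in the text. RNAPII lies between 13.5 and 77.0 reads per 10M, while RNA runs from 0.141 to 3257 CPM.

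Lists of developmental, HOX and zinc finger transcription regulators had medians below that of all genes with a yield, which for the HOX genes turned round after length matching and for each list was lost per kb of region. Across all genes with a yield 9.18% were high and 15.1% low (7.85% and 12.6% after length matching). Developmental transcription factors had 0 high and 15 low of 30 with a yield, out of 71 (1 and 8 after length matching). Their median was -2.18 (-0.91 after length matching, 0.32 per kb). DLX4 and SOX18 were lowest at -5.32 and -4.59, and TBX18 and SOX4 highest at 1.03 and 0.42. HOX genes had 0 high and 3 low of 12 (0 and 0 after length matching), at a median of -1.10 that was 0.44 after length matching and 2.09 per kb, and HOXB13 and HOXA4 were the lowest at -3.24 and -2.70. Zinc finger genes had 6 high and 46 low of 217 (4 and 26 after length matching) and a median of -0.78 (-0.52 after length matching). The extremes among them were ZNF711, with 2255 and 2289 CPM over 23.9 reads at 4.18, and ZNF843 at -5.93. ZNF425 had 8.50 and 9.13 CPM over 47.6 RNAPII reads per 10M, at -4.81, and starts 84 bases from ZNF398.

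For RNAPII subunits, the place beside the median gene depended on how length was treated. The medians of pausing and elongation factors and of Polycomb genes stayed above the median gene on each scale. With 9.18% high and 15.1% low of all genes with a yield, nothing is read from the counts of these lists. RNAPII subunits had 0 high and 1 low of 6 and a median of -0.30 that was 0.76 after length matching and 2.62 per kb. The low one was POLR2A, the largest subunit and the antigen of the antibody used, with 100.4 and 90.1 CPM over 77.0 RNAPII reads per 10M (67.3 to 87.5), the third highest RNAPII value of the table, and a relative yield of -2.08. Pausing and elongation factors had 2 high and 0 low of 17 and a median of 0.26 (0.96 per kb), from the histone chaperone subunits SUPT16H at 2.57 and SSRP1 at 2.54 to CDK9, the P-TEFb kinase, at -1.84. Polycomb genes had 2 high and 2 low of 20 and a median of 0.77 (0.13 per kb). RBBP7 and JARID2 were high at 2.63 and 2.10, and the CBX7 and CBX8 genes of chromodomain subunits were low at -2.65 and -2.20. Per kb, JARID2 stood at -0.96 and CBX8 at 1.39. EZH2, the methyltransferase, stood at 1.52, and EZH1, its paralogue, at -1.63.

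The 8 highest RNAPII values went with RNA from 43.0 to 1437 CPM. WDR74, a ribosome assembly gene, had 133 RNAPII reads per 10M (120 to 147), with 1572 and 1301 CPM and a relative yield of 1.04. Whether other transcripts within or next to the WDR74 region add to these values was not tested. TOB2, an antiproliferative gene related to BTG2, had 77.6 reads, 88.0 and 91.0 CPM and a relative yield of -2.18. ZFP30, NBPF1, ADAMTS1 and ARIH1 stood between -0.84 and 0.27. Among the 87 genes with 40 or more RNAPII reads per 10M, 3 were high and 22 low, where 9.18% and 15.1% of all genes with a yield were. These genes were picked by the denominator of the yield, so nothing is read from the count.

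Among the 7353 genes without a yield, 1528 had 10 CPM or more. PTPRD, a receptor phosphatase gene of 2298 kb, had 2600 and 2327 CPM with RNAPII at -2.30, and ROBO1, an axon guidance receptor of 1171 kb, had 973.7 and 964.3 CPM with RNAPII at -0.81. LRP1B (4.36), EFNA5 (-0.29), KLHL15 (-1.28), FLNA (4.61) and MAP3K13 (3.33), with RNAPII reads per 10M in brackets, and IPO5 were the others of the 8 with most RNA. Of the 1528 genes, 33.5% also had under 5 H3K4me3 reads per 10M at the start counted, among them ROBO1 at -1.46 and IPO5 at -1.59. Whether these genes start elsewhere in these cells was not tested. Of 67 olfactory receptor genes 0 reached the RNAPII limit. Summed over markers, hepatocyte, blood and keratinocyte genes gave under 1 CPM in each replicate, fibroblast genes gave 1.89 and 2.16 CPM, mostly from COL1A1, and genes of neuronal type known in HEK293 cells gave 193 and 192 CPM, nearly all from NEFL and INA. The 4 kidney genes reported gave 11.9 and 12.5 CPM, nearly all from the developmental factors PAX2 and LHX1, while CDH16 and UMOD of mature tubules were at or near 0.

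Readouts of RNA differed widely between the classes, and H3K4me3 at the promoter differed little. The classes are made from RNA and all passed the RNAPII limit, so neither contrast is independent of how they were drawn. Over all 14432 genes RNAPII ranked with H3K4me3 at rho 0.834, and genes without a yield had a median H3K4me3 of 0.245. RNAPII PAR-CLIP, which recovers RNA crosslinked to RNAPII and shares neither the input nor the RNA libraries, gave a median of 140 units of summed coverage in high genes, 1.74 in low genes and 31.0 in the genes between with 4-thiouridine. With 6-thioguanosine the medians were 75.2, 0 and 18.6. The 4-thiouridine library ranked with CPM at rho 0.812 over the 7079 genes and with promoter RNAPII at 0.266. PAR-CLIP coverage was scaled to 1M of each library's sum. It also grows with RNA amount and gene length, and the part of either was not tested. Coverage of PHC1 PAR-CLIP, of an RNA-binding Polycomb protein, had medians of 74.5 and 95.9 in high genes, 0.729 and 0.902 in low genes and 17.1 and 21.4 between, in replicates 1 and 2. H3K4me3 at the TSS had medians of 51.2 in high genes, 47.9 in low genes and 54.4 between, and was under 5 reads per 10M in 0.154%, 5.53% and 0.224% of them. H3K27me3, the Polycomb mark, was below input in the median of each class, at -2.17, -1.63 and -2.07.

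Promoter sequence was compared where RefSeq entries covered the genes. Entries matched 82.3% of high genes, 74.0% of low genes and 82.2% of those between, so that any sequence comparison with the low class is void under a limit of 80%. High genes had more than 1 RefSeq start in 34.0% of 535 promoters, against 24.3% of 4408 between, and after length matching the shares were 27.6% and 24.5%. TATAAA between -40 and -11 was found in 1.68% of the high promoters (9 genes) and CCAAT on either strand in 39.3%, against 1.11% and 38.5% of those between. After length matching, the high class had TATAAA in 2.80% of 464 promoters (13 genes) and CCAAT in 46.8%, against 1.15% and 38.2% of the 4592 promoters between, so the gap in CCAAT was seen mainly on that scale. Of all 27305 RefSeq promoters 2.60% and 35.7% held them. By the deposited regions, which cover every gene, another region lay within 1 kb of 15.7% of high genes, 32.3% of low genes and 21.9% of those between. After length matching the shares were 21.8%, 31.7% and 21.6% in that order, so the high genes no longer stood below those between.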

How the data were processed

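The RNA table as deposited holds counts, whole reads per gene and library, from TopHat2 2.0.11 on hg19 per the submitters' processing notes; the counting tool and its strand setting are not given in the sources used here. The ChIP table as deposited holds a score per gene, which the authors made from reads at the TSS scaled to 10M minus the input, after Bowtie2 2.2.3 on hg19. Each of 14432 rows was found to decode into whole reads of the RNAPII, EZH2, H3K27me3, H3K4me3 and input libraries (largest deviation 2.16e-12 reads). The lowest decoded number was 10 in all 5 libraries, so 10 reads appear to have been added to each, worth 0.49 reads per 10M in the RNAPII column; counting intervals leave them out. The deposited PAR-CLIP tables give a signal, the mean coverage of each cluster, which was summed over a gene's region on both strands and scaled to the library's sum. The authors' own RNA column, log2 of reads per kb of region, was not used, and 762 of its cells hold an error text.

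CPM was taken on reads in genes, with 0.1 added for yields. Poisson intervals (95%) of RNAPII and input reads were joined by the MOVER method. Decoding and classing were checked on simulated data. Symbols, gene types and promoters came from RefSeq (GRCh38.p14) by Entrez number, matching 14378 genes by symbol and 10969 by promoter, while gene regions are those of the deposited hg19 table, where 0 regions overlap. The design had no test, as 1 RNAPII library and 1 RNA condition allow none. A few list members are not reported here by name. Genes and lists were chosen with earlier results of these data known. Named genes are the 12 highest and 12 lowest yields with more than 3 reads in each RNA library, the 2 highest and 2 lowest of each list by the same condition, the 8 with most RNAPII, the 8 with most RNA under the RNAPII limit, those next to the class limits, and list members that illustrate a group, chosen after their values were seen. Python 3.11.15, pandas 2.3.3, numpy 2.4.6, scipy 1.17.1, edgeR 4.0.16 and DESeq2 1.42.0 (scaling alternatives only) were used.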

Additional observations from a re-analysis of the deposited data

How the results depend on the processing

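No paired analysis was possible because the comparison has 1 RNAPII library and 1 group of RNA libraries. The counts of 650 high and 1067 low genes, and the rank correlation of 0.295, moved with the RNAPII limit, and the counts also with the fold that sets the classes. With 2 reads per 10M there were 1191 high and 2066 low genes and rho was 0.537, and with 10 reads 380, 660 and 0.188. Classes at 8-fold held 144 high and 580 low genes. Per kb of region, 1033 were high and 963 low, and rho was 0.339. The rank correlation was 0.297 before input subtraction, 0.246 for RNAPII over input, 0.278 for genes with at least 1 CPM in both libraries, and 0.333 without genes that have another region within 1 kb, an alternative chosen after seeing the data. Without replicate 1 or 2, the counts were 652 and 656 high and 1060 and 1068 low, and rho was 0.296 and 0.294. Pseudocounts of 1 and 0.01 CPM, TMM and DESeq2 scaling, and removal of the 10 added reads left both counts within 1.5 times. Leaving out overlapping regions changed no value, since none overlap.

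Per kb of region, 17 of the 120 named genes in a class changed sign: AUTS2 to -0.15, FHIT to -0.89, NKAIN2 to -0.46, JARID2 to -0.96, CDH2 to -0.38, COL25A1 to -0.76, SLC35F1 to -0.69, DDIT4 to 1.08, GADD45A to 0.67, CBX8 to 1.39, HOXA4 to 1.16, EGR1 to 0.47, DUSP1 to 1.27, BTG2 to 0.59, ARC to 0.39, DNAJB9 to 0.42 and CEBPB to 1.18. The median of developmental transcription factors also changed sign, to 0.32, as did those of 9 further lists. Length matching changed the sign of 5 list medians (mitochondrial ribosomal protein, p53 targets, RNAPII subunits, HOX, and collagen and laminin genes) and of 0 named genes in a class. RNAPII depth limits single genes: the median interval was 37.0% of the value on either side, and 46.8% of high genes had under 10 RNAPII reads per 10M, against 30.3% of all genes with a yield.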
